A study of Homo sapiens with 24 samples.

Results

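The comparison described here set 3 h of dTAG13 against 0 h in DLD1 cells that carry the INTS8 variant N211del, in the second batch of a TT-seq series. Its members are the libraries whose titles name the N211del line, batch 2 and either time, and they number 4 of the 24 libraries of the series, 2 at 3 h and 2 at 0 h. TT-seq isolates and sequences RNA labelled during a short pulse of a uridine analogue, so a value follows recent transcription more than the pool of stable RNA. DLD1 is a human colorectal adenocarcinoma line. In the cells of all 4 libraries the INTS8 gene holds a knocked-in dTAG tag and INTS8-N211del is expressed ectopically. dTAG13 is a small molecule that directs a dTAG-tagged protein to degradation. Sets of 2 libraries each are also used below: the same line at 1 h in batch 2, the INTS11-dTAG line (a dTAG tag knocked into INTS11) at 3 h and 0 h of dTAG13 in batch 2, and, in batch 1, the N211del line given dTAG13 or its vehicle DMSO, each for 3 h. Batch 2 holds no group that the labels call vehicle-treated and the series has no dTAG13 treatment of cells without a tag. In batch 2 loss of the tagged protein therefore cannot be told apart from effects of the compound, its vehicle or handling. In batch 1, where the control was DMSO for 3 h, it still cannot be told apart from effects of the compound. The tag acts on protein, which RNA values do not measure. The treatment protocol gives 3 h for every sample, and the times in titles and characteristics were used. The genes INTS8, INTS11 and PPP2CA, the last coding for a catalytic PP2A subunit, were not analysed here.

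Integrator is a large complex that meets RNA polymerase II near the start of genes. Its INTS11 subunit cuts nascent RNA, and its INTS8 subunit helps to hold the phosphatase PP2A, which removes phosphates that kinases of the P-TEFb class place on the polymerase and on pausing factors. By ending transcription early and opposing those kinases, the complex restrains many genes, with stimulus-induced genes such as the immediate early genes among the best known.

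The files listed 7223 genes in batch 2, and 6950 passed a minimum mean of 0.1 over its 12 libraries. The 3 h libraries held 9987049 and 9881746 whole-number units, and the 0 h libraries 8709274 and 9566970. A unit is the value multiplied by a gene length inferred from the values and divided by 1 fitted factor per library. The factors were 0.708 and 0.709 at 3 h, and 0.704 and 0.664 at 0 h. FPKM is used below only as the name that the file headers give the values. Scaling to library totals is not seen in these factors. The 3 h libraries held more units than the 0 h libraries, yet their factors were not smaller. Levels are therefore in the deposited scale and may not be FPKM in the strict sense. Between the 3 h libraries the chi-square was 1.02 per gene, which is within counting noise if units are counts. Between the 0 h libraries it was 1.04, slightly above that noise. The labels call the pairs biological duplicates and n = 2 was kept, but the spread between these libraries may be technical. Of 12 markers of colorectal epithelium, 10 were listed, with summed values of 3297 to 3350 at 3 h and 3399 to 3478 at 0 h. Of 6 fibroblast markers only COL1A1 was listed, at 0.162 to 0.202 at 3 h and 0 to 0.0379 at 0 h. No marker of the leukocyte and endothelial sets was listed. In bulk libraries such as these, fewer cells with a transcript and less of it per cell cannot be told apart.

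After 3 h of dTAG13 newly made RNA was higher at far more genes than it was lower, and by larger steps, although the balance of counts turned round with each library centred on its median. Of the 6950 genes, 4410 were called (63.5%), 3454 higher (49.7%) and 956 lower (13.8%), by limma on log2(value + 0.1) with Benjamini-Hochberg adjustment at 0.05. All fold changes below are on that scale, which understates the change of low genes. Rises of at least 2-fold were called for 611 genes and falls of at least 2-fold for 21. At 4-fold the counts were 104 and 1. The median gene lay 0.18 above 0 on the log2 scale, and with each library centred on its own median the split was 2148 higher and 2436 lower. The surplus of small rises therefore depends on the scaling of the libraries, which the deposited values fix. A loess correction of each library for gene length gave 1749 higher and 3060 lower. Small changes below are read against the median gene, and the centred counts stand beside the counts of each gene group.

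The 10 largest rises were at genes with low values at 0 h, between 0 and 6.10 FPKM. MAFA, a transcription factor of pancreatic beta cells and the lens, had 4.51 and 3.72 FPKM at 3 h and was listed at 0 in both 0 h libraries (adjusted p = 0.000156). DIO3, the deiodinase that inactivates thyroid hormone, had 52.8 and 59.0 FPKM at 3 h, against 1.80 and 6.10 FPKM at 0 h. Its log2 fold change was 4.03 ± 0.46 (SE, n = 2 each; adjusted p = 4.86e-05). The 0 h libraries of DIO3 stood more than 3-fold apart, yet both lay far below the 3 h libraries. FOSB, an AP-1 subunit, had 22.1 and 21.7 FPKM at 3 h, against 1.37 and 1.85 FPKM at 0 h, a log2 fold change of 3.70 ± 0.11 (adjusted p = 7.20e-09). NR4A2, an orphan nuclear receptor and immediate early gene, had 34.2 and 31.5 FPKM at 3 h, against 1.96 and 3.37 FPKM at 0 h. DLL4, a Notch ligand, had 32.2 and 32.8 FPKM at 3 h, against 2.68 and 2.52 FPKM at 0 h, and its log2 fold change of 3.59 ± 0.07 had the smallest error of the 10 largest rises (adjusted p = 6.96e-10).

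CCDC80, RAET1G, INSL4, HOXD13 and FGFR3 complete the 10 largest rises. CCDC80 encodes a secreted matrix protein and RAET1G a ligand of the NKG2D receptor of lymphocytes. INSL4 is an insulin-like peptide of the placenta, HOXD13 a homeobox factor of limb and genital development and FGFR3 a receptor of fibroblast growth factors. CCDC80 had 4.02 and 3.98 FPKM at 3 h, against 0.111 and 0.239 FPKM at 0 h. FGFR3 had 2.32 and 1.96 FPKM at 3 h, against 0.0452 and 0.128 FPKM at 0 h. HOXD13 had 3.60 and 3.83 FPKM at 3 h, against 0 and 0.844 FPKM at 0 h, and it was the one gene of the 10 whose call rested on a single library: without 0 h replicate 1 its log2 fold change was 2.01 in place of 3.63 (adjusted p = 0.0691, and 0.0101 with all libraries). All 10 lay higher in both 3 h libraries than in both 0 h libraries, which their choice required and which held for 61.1% of the genes tested. SP9, a transcription factor gene, was also listed at 0 in both 0 h libraries and had 1.60 and 0.799 FPKM at 3 h. Of 150 genes at 0 in both 0 h libraries, 39 were above 0 in both 3 h libraries, 2 of them above 0.5 FPKM in both. The reverse held for 1 gene, ODF3B, above 0 in both 0 h libraries (0.407 and 0.384 FPKM) and at 0 in both 3 h libraries. These counts cover all 7223 genes listed, also those below the filter. Genes at 0 numbered 220 and 206 in the 0 h libraries and 138 and 143 in the 3 h libraries. The part played by depth near the floor was not tested. ODF3B was chosen after its values were seen, and its call (adjusted p = 0.0382) was lost without any single library of the 4 (adjusted p = 0.101 to 0.113).

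**Figure D1:**
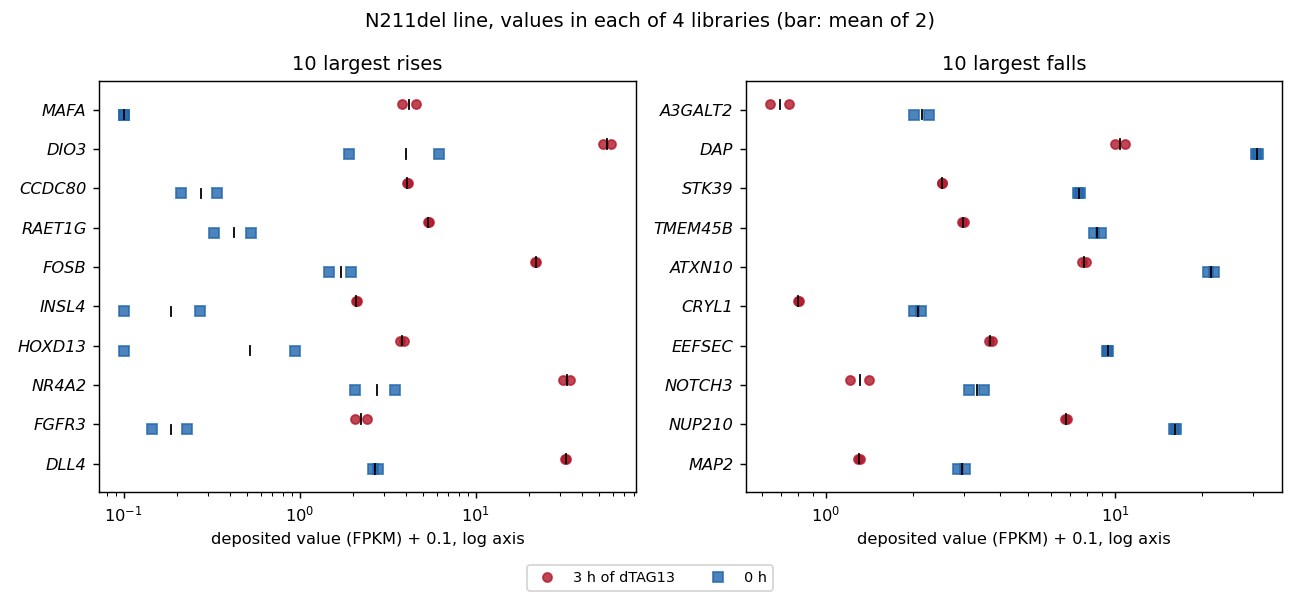
Deposited values plus 0.1 on a log axis for the 10 largest rises and the 10 largest falls, with circles for the 2 libraries at 3 h of dTAG13, squares for the 2 libraries at 0 h and a bar for each mean. The 3 h circles lie right of the 0 h squares for every rise, by the widest gap for MAFA, and left of them for every fall, where STK39 had 2.42 and 2.41 FPKM at 3 h.

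The falls were smaller. DAP, a regulator of autophagy and cell death, had 10.7 and 9.88 FPKM at 3 h, against 30.6 and 31.1 FPKM at 0 h, a log2 fold change of −1.58 ± 0.04 (adjusted p = 3.85e-09). STK39, a kinase that controls ion cotransporters, had 2.42 and 2.41 FPKM at 3 h, against 7.33 and 7.44 FPKM at 0 h (log2 fold change −1.57 ± 0.05, adjusted p = 8.67e-09). ATXN10, the gene in which repeat expansions cause spinocerebellar ataxia, had 7.58 and 7.81 FPKM at 3 h, against 20.9 and 21.8 FPKM at 0 h. NUP210, a membrane protein of the nuclear pore, had 6.63 and 6.75 FPKM at 3 h, against 16.2 and 15.9 FPKM at 0 h. In each of these the gap between times was many times the gap between libraries of a time. A3GALT2, TMEM45B, CRYL1, the selenocysteine elongation factor EEFSEC, the Notch receptor NOTCH3 and the neuronal microtubule protein MAP2 complete the 10 largest falls, at log2 fold changes of −1.63, −1.54, −1.37, −1.35, −1.34 and −1.18. Both 3 h libraries lay below both 0 h libraries for each of the 10, again by choice, against 20.7% of the genes tested. With libraries centred, all 10 falls were larger, between −1.83 and −1.37.

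Promoters are shown for DIO3, FOSB and DLL4 of the 10 largest rises and for STK39 and ATXN10 of the 10 largest falls. That of HEXIM1 is added, which is not among the 10 largest rises (log2 fold change 1.53). The genes shown were picked by name without a rule, so the sequences are examples and do not compare rises with falls. The 100 bases before the annotated start are given 5′ to 3′ on the gene's strand, from RefSeq on GRCh38.p14, with the letters TATAAA in capitals where they lie 50 to 11 bases before the start. DIO3 is at chr14:101561395-101561494 on the plus strand, FOSB at chr19:45467896-45467995 on the plus strand, HEXIM1 at chr17:45148375-45148474 on the plus strand and DLL4 at chr15:40929240-40929339 on the plus strand. STK39 is at chr2:168247596-168247695 on the minus strand and ATXN10 at chr22:45671734-45671833 on the plus strand.
DIO3: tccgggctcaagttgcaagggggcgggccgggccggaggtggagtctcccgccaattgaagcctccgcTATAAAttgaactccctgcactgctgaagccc
FOSB: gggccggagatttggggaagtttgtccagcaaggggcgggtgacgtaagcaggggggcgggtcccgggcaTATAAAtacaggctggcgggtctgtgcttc
HEXIM1: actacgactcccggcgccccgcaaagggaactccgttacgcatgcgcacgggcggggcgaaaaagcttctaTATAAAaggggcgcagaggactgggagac
DLL4: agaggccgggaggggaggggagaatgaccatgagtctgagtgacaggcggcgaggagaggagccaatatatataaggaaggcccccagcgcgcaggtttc
STK39: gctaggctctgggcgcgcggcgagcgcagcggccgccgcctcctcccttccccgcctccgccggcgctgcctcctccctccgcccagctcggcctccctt
ATXN10: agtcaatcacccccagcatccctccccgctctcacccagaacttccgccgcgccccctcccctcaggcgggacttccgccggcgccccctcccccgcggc
In DIO3, FOSB and HEXIM1 the motif begins 32, 30 and 29 bases before the start. Only the exact letters TATAAA were searched, so close variants, such as the tatataag in the DLL4 sequence, were neither marked nor counted. A gene without a match may therefore still hold a TATA-like sequence. RefSeq promoters were matched for 8 of the 10 largest rises and 8 of the 10 largest falls. The letters TATAAA on the gene's strand of the window were in 3 of the 8 rises (DIO3, FOSB and HOXD13) and in 0 of the 8 falls, against 98 of the 5615 tested genes with a promoter (1.75%). On the other strand of the same window they were in 1 of the 8 rises, 0 of the 8 falls and 31 of the 5615 genes (0.552%). Such a match describes letters and is not a measured binding site.

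Most tested genes of the lists that answer growth factors were called higher at 3 h. For comparison, 49.7% of all genes tested were higher and 13.8% lower, or 30.9% and 35.1% with libraries centred. No list was tested against all genes or matched to them by level. Of 7 AP-1 genes tested, 5 were called higher and 0 lower, with a median log2 fold change of 0.50 (5 higher and 1 lower with libraries centred). FOS had 132 and 121 FPKM at 3 h, against 45.7 and 44.3 FPKM at 0 h, and ATF3 rose by a log2 fold change of 1.40. Of 21 other immediate early genes 16 were higher and 3 lower, with a median of 0.92 (14 and 5 centred). NR4A3, a relative of NR4A2, had 35.4 and 36.3 FPKM at 3 h, against 5.27 and 5.82 FPKM at 0 h. SGK1, a kinase induced by serum and glucocorticoid, and HBEGF, a ligand of the EGF receptor, rose by 2.44 and 2.38 on the log2 scale. EGR1, the zinc finger factor often used as the marker of this class, went the other way, with 177 and 171 FPKM at 3 h, against 321 and 346 FPKM at 0 h (log2 fold change −0.94 ± 0.04, adjusted p = 3.75e-08). The other 2 that fell were KLF6 (−0.47), a zinc finger factor, and CCN1 (−0.33), a matrix protein. CCN1 was called in the opposite direction against DMSO in batch 1 (log2 fold change 0.28, adjusted p = 0.00288). Of 12 MAPK feedback genes 10 were higher and 0 lower (8 and 2 centred), led by the phosphatases DUSP4 and DUSP1 with log2 fold changes of 1.46 and 1.18.

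Of 19 hypoxia and glycolysis genes 18 were higher and 0 lower, with a median of 0.71 (13 and 4 centred). NDRG1, a stress-responsive gene strongly induced by low oxygen, had 24.6 and 25 FPKM at 3 h, against 2.0 and 2.33 FPKM at 0 h (log2 fold change 3.46 ± 0.06, adjusted p = 6.02e-10). EGLN3, a prolyl hydroxylase that marks HIF for destruction, had 39.2 FPKM in both libraries at 3 h, against 9.05 and 9.27 FPKM at 0 h. The peptide hormone ADM and the glycolytic regulator PFKFB3 rose by log2 fold changes of 1.9 and 1.89. Of 10 TGF-beta and BMP targets 9 were higher and 0 lower (8 and 0 centred). SNAI1, the repressor of epithelial genes, had 88.1 and 87.1 FPKM at 3 h, against 12.4 and 12 FPKM at 0 h, and the inhibitory SMAD6 rose by 2.93 on the log2 scale.

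Of 19 interferon-stimulated genes 17 were higher and 0 lower (14 and 1 centred), with OASL and CMPK2 at log2 fold changes of 2.06 and 1.66 from low levels. Of 12 NF-kB targets 7 were higher and 1 lower (6 and 3 centred), led by the dendritic cell marker CD83 (1.39) and the signalling adaptor TRAF1 (1.30), a share higher that is near that of all genes. Of 11 p53 targets 8 were higher and 0 lower (7 and 1 centred), such as the kinase PLK2, with 238 and 240.4 FPKM at 3 h and 96.6 and 97.9 FPKM at 0 h. PLK2 is counted among the immediate early genes too. Of 15 Wnt targets 10 were higher and 3 lower (9 and 4 centred). The homeobox factor PROX1 and the ephrin receptor EPHB3 rose by 1.86 and 1.85, while AXIN2, a feedback inhibitor of the pathway, fell by 0.22 on the log2 scale. Of 18 ATF4 and unfolded protein genes 11 were higher and 2 lower (8 and 4 centred). DDIT4, an inhibitor of mTORC1, had 107 and 121 FPKM at 3 h, against 37.0 and 36.1 FPKM at 0 h, and ATF4 itself fell by 0.43. The share of this list that was higher is also near that of all genes. Of 12 cholesterol genes 9 were higher and 0 lower (6 and 2 centred), with the isoprenoid enzyme IDI1 at a log2 fold change of 0.91. YAP targets were divided, with 3 of 13 higher and 5 lower (3 and 10 centred): the matrix protein CCN2 had a log2 fold change of 1.30 and the muscle repeat protein ANKRD1 one of −0.73.

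**Figure D2:**
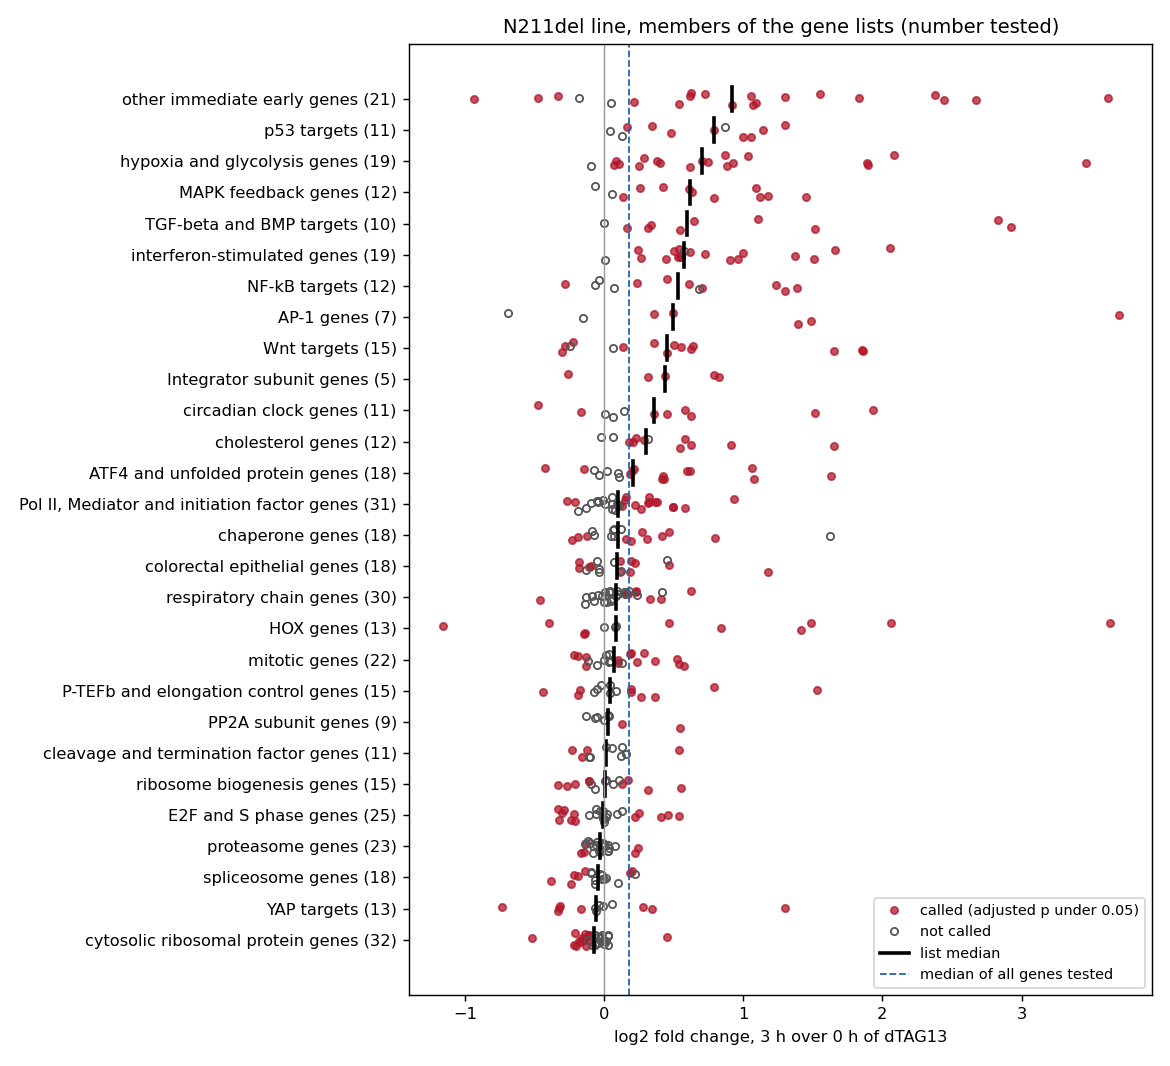
Log2 fold change of 3 h over 0 h for each tested member of 28 gene lists, with filled points for members called at an adjusted p under 0.05, open points for the others, a black bar for each list's median and a dashed line for the median of all genes (0.18). Immediate early genes have the highest median, 0.92, with EGR1 alone near −0.94, and cytosolic ribosomal protein genes the lowest, −0.07.

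Among the tested genes of the transcription machinery HEXIM1 had the largest called change. HEXIM1, which holds P-TEFb inactive, had 379.5 and 385 FPKM at 3 h, against 131 and 134 FPKM at 0 h (log2 fold change 1.53 ± 0.03, adjusted p = 6.96e-10). CTR9, a scaffold of the PAF elongation complex, rose by 0.79. The pausing factor subunit NELFB fell by 0.44. In all, 6 of 15 P-TEFb and elongation control genes were higher and 3 lower, which turned to 4 and 9 with libraries centred. Integrator's own subunits were represented by 5 tested genes, 4 of them higher and 1 lower (3 and 1 centred). NABP1, a single-stranded DNA binding subunit, had 206 and 202 FPKM at 3 h, against 113 and 117 FPKM at 0 h. INTS2 and INTS10 rose by 0.79 and 0.44, and INTS1 fell by 0.26. Of 9 PP2A subunit genes 2 were higher and 0 lower (1 and 8 centred), the regulatory subunit PPP2R3A by 0.54. Among 11 cleavage and termination factor genes 1 was higher and 3 lower (1 and 7 centred). ZC3H4, which ends transcription outside coding genes, had 32.2 FPKM in both libraries at 3 h and 21.9 and 22.3 FPKM at 0 h, and the cleavage scaffold SYMPK fell by 0.23. Pol II, Mediator and initiation factor genes were 15 higher and 2 lower of 31, a share higher near that of all genes, which became 4 higher and 15 lower when centred. GTF2B, the initiation factor TFIIB, had 46.6 and 45.3 FPKM at 3 h, against 23.8 and 24.2 FPKM at 0 h.

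Lists of housekeeping, cell cycle and chaperone genes had medians between −0.07 and 0.10, below the median of all genes (0.18), although single members lay above it. Over all genes the median also fell with level, to 0.06 in the highest of 5 bins. The lists were not matched for level, so the part played by level was not tested. Of 32 cytosolic ribosomal protein genes 14 were lower and 1 higher, with a median of −0.07, and centring made this 31 lower and 1 higher. RPL22L1, a paralogue of RPL22, fell by 0.51 and RPS27L, a p53-responsive paralogue of RPS27, rose by 0.46. Ribosomal protein genes have processed pseudogenes, and the treatment of reads shared among copies is not known from the sources used here. Respiratory chain genes were 8 higher and 1 lower of 30 (3 and 11 centred), proteasome genes 2 and 3 of 23 (0 and 20 centred), and spliceosome genes 2 and 5 of 18 (0 and 14 centred). The splicing factors SRSF4 and SRSF3 fell by 0.38 and 0.24. Of 25 E2F and S phase genes 5 were higher and 7 lower (3 and 17 centred). The cyclin CCNE1 rose by 0.54, while the helicase subunits MCM5 and MCM6 fell by 0.33 and 0.32. Of 22 mitotic genes 10 were higher and 4 lower (4 and 13 centred), a share higher near that of all genes, with the kinesin CENPE at 0.57. Ribosome biogenesis genes were 4 higher and 5 lower of 15 (2 and 10 centred), and chaperone genes 7 higher and 3 lower of 18 (4 and 9 centred). Their leading members were the Pol I subunit POLR1E (0.56) and the HSP110 relative HSPA4L (0.80).

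Of 13 HOX genes tested 6 were higher and 4 lower, which turned to 4 and 6 with libraries centred. By cluster, all 3 HOXD genes and both HOXC genes of the list were called higher, as was 1 of 3 HOXA genes, while 4 of the 5 HOXB genes were called lower. The difference between clusters was not tested. HOXD8 had 5.28 and 4.08 FPKM at 3 h, against 0.955 and 1.12 FPKM at 0 h, and HOXC8 had 4.85 and 3.74 FPKM at 3 h, against 1.49 and 1.57 FPKM at 0 h. HOXB2 had 11.9 and 9.56 FPKM at 3 h, against 24.0 and 23.8 FPKM at 0 h (log2 fold change −1.16 ± 0.11, adjusted p = 1.72e-05), and HOXB8 fell by 0.39. The call of HOXD13 rested on a single library, as given above. That of HOXC10 was marginal too: it (log2 fold change 1.49, adjusted p = 0.0495) was not called with libraries centred (adjusted p = 0.101), without 3 h replicate 2 (0.252) or without 0 h replicate 2 (0.326). A further HOXD gene, HOXD11, which was tested and which the list lacks, was not called (log2 fold change 0.36, adjusted p = 0.0512). Grouping by cluster was chosen after the values were seen. Of 11 circadian clock genes 6 were higher and 2 lower (5 and 3 centred), near the share of all genes, with the repressor BHLHE41 at 1.93, the activator HLF at 1.52 and CLOCK at −0.47. Of 18 colorectal epithelial genes 7 were higher and 4 lower (2 and 10 centred), led by the mucin MUC13, with 11.2 and 11.3 FPKM at 3 h and 5.12 and 4.73 FPKM at 0 h.

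Size of change followed level and gene length in different ways. By level, the median log2 fold change was 0.45 in the lowest of 5 equal bins of mean value and 0.06 in the highest. Called rises of at least 2-fold made up 22.2% of the lowest bin and 3.92% of the highest. The 611 genes with such rises had a median of 5.25 FPKM at 3 h and 1.78 FPKM at 0 h, against 15.7 FPKM at 3 h and 13.7 FPKM at 0 h for all genes tested. By length, the median log2 fold change was 0.23 in the shortest bin, 0.13 in the middle bin and 0.22 in the longest. Genes called lower by at least 1.5-fold, 109 in all, were long, with a median of 76.3 kb and 41.3% over 100 kb, against 33.3 kb and 18.7% of the genes tested. Genes called higher by at least 2-fold had a median of 24.1 kb, and those by at least 4-fold 13.7 kb. These are descriptions over genes, with no test, and the lengths were inferred from the deposited values.

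**Figure D3:**
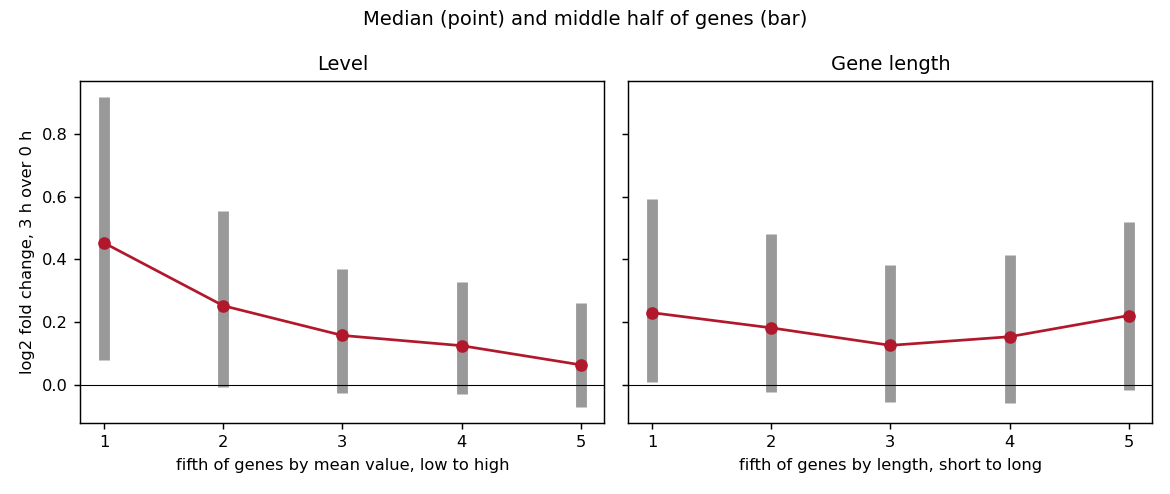
Median log2 fold change of 3 h over 0 h (points) and interquartile range over genes (bars) in 5 equal bins by mean value over the 12 batch 2 libraries, low to high, and by gene length, short to long. The median falls steadily with level, from 0.45 to 0.06, and is lowest in the middle bin by length, at 0.13.

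Many changes were called at 1 h already, and many genes were then lower at 3 h than at 1 h. At 1 h against 0 h 4932 genes were called (71%), 4590 higher (66%) and 342 lower (4.92%), which centring turned to 2049 higher and 2509 lower. At 3 h against 1 h 2583 were called (37.2%), 153 higher (2.2%) and 2430 lower (35%), where the median gene lay 0.13 below 0. With libraries centred that comparison gave 803 higher and 530 lower, and its count was 1391 without 3 h replicate 2, 1527 without 1 h replicate 1 and 1540 without 1 h replicate 2. The comparisons share libraries, so their values are given side by side. DLL4 had means of 2.60, 28.7 and 32.5 FPKM at 0, 1 and 3 h, and NR4A2 2.67, 30.8 and 32.9 FPKM. Neither differed between 3 h and 1 h at the threshold (adjusted p = 0.0566 and 0.729). FOSB continued upward, with means of 1.61, 13.2 and 21.9 FPKM at 0, 1 and 3 h (log2 fold change of 3 h over 1 h 0.73, adjusted p = 0.00143), as did INSL4 (1.30, adjusted p = 0.0263). Falls also had different timing. DAP had reached 11.2 FPKM at 1 h and stood at 10.3 FPKM at 3 h, whereas TMEM45B had means of 8.59, 7.20 and 2.88 FPKM at 0, 1 and 3 h, with most of its fall after 1 h (log2 fold change of 3 h over 1 h −1.29, adjusted p = 2.06e-05). STK39 fell in both intervals, by 0.78 and 0.80 on the log2 scale. EGR1 turned, with means of 334, 127 and 174 FPKM at 0, 1 and 3 h, and its rise of 0.45 after 1 h was called (adjusted p = 0.000134).

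**Figure D4:**
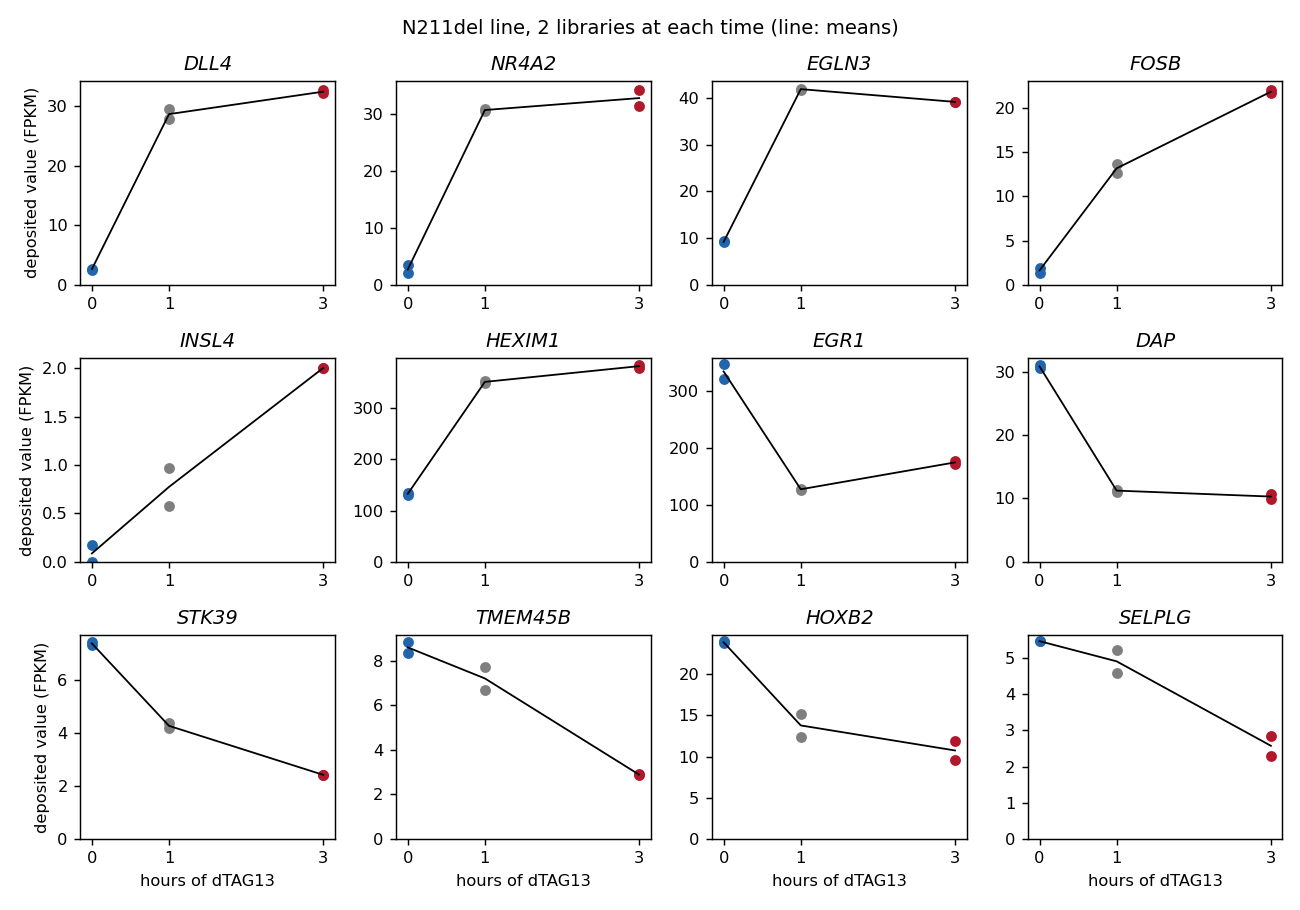
Values of 12 genes in the N211del line at 0, 1 and 3 h of dTAG13 in batch 2, with 2 libraries at each time and a line through the means. DLL4, NR4A2, EGLN3 and HEXIM1 are near their 3 h level by 1 h, FOSB and INSL4 are still rising, and among the genes lower at 3 h DAP levels off early, TMEM45B and SELPLG drop late and EGR1 recovers in part.

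The INTS11 line at the same times allows the response of cells that express INTS8-N211del, with the tag on the subunit that helps to hold the phosphatase, to be set beside that of cells with the tag on the endonuclease. These groups share no library with those of the N211del line. In the INTS11 line 3847 genes were called at 3 h against 0 h (55.4%), 2503 higher (36%) and 1344 lower (19.3%). Of the 611 genes with rises of at least 2-fold in the N211del line, 475 were called higher in the INTS11 line (77.7%), against 36.0% of all genes tested. Rises of at least 2-fold in both lines were shared by 174 genes, which is 28.5% of the 611 in the N211del line and 46.8% of the 372 in the INTS11 line. The difference between the 2 responses, tested as an interaction, was called for 3540 genes (50.9%), with the N211del response above that of the INTS11 line for 2487 (35.8%) and below it for 1053 (15.2%). The median gene differed by 0.11, centring gave 1752 above and 1993 below, and averaging the pairs that agree within counting noise lowered the count to 2250.

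Among genes with a mean of at least 1 FPKM, those that differed most upward were MAFA, FGFR3, NDRG1, RAET1G and NATD1. NDRG1 rose by 3.46 in the N211del line and by 0.44 in the INTS11 line on the log2 scale (difference 3.02 ± 0.08, adjusted p = 1.31e-07). Its levels lay apart mostly at 0 h, with 2.0 and 2.33 FPKM in the N211del line and 15.29 and 15.07 FPKM in the INTS11 line. At 3 h NDRG1 had 24.64 and 25.01 FPKM in the N211del line and 20.75 and 20.46 FPKM in the INTS11 line. NATD1, a predicted acetyltransferase, rose by 3.02 in the N211del line and by 0.41 in the INTS11 line (difference 2.60 ± 0.14, adjusted p = 1.50e-06). FGFR3 had a log2 fold change of 3.62 in the N211del line and of 0.38 in the INTS11 line, where it was not called (adjusted p = 0.256). At 0 h FGFR3 had 0.0452 and 0.128 FPKM in the N211del line and 1.074 and 0.601 FPKM in the INTS11 line. At 3 h it had 2.32 and 1.96 FPKM in the N211del line and 1.052 and 1.111 FPKM in the INTS11 line. HERPUD1, a gene of the unfolded protein response, had 1.08 in the N211del line, against −0.27 in the INTS11 line, called in both. The INTS11 line had more HERPUD1 at both times, with 117.3 and 111.1 FPKM at 0 h, against 36.33 and 35.11 FPKM in the N211del line. The genes that differed most downward were NPPB, KISS1, NRSN2, SLC25A45 and SELPLG. SELPLG, the ligand of P-selectin, had 2.29 and 2.86 FPKM at 3 h, against 5.47 and 5.48 FPKM at 0 h, in the N211del line, a log2 fold change of −1.07, while in the INTS11 line it rose by 0.77 (difference −1.84 ± 0.16, adjusted p = 2.41e-05). SLC25A45, a mitochondrial carrier, rose by 0.94 in the N211del line, against 2.81 in the INTS11 line, and its N211del call was lost without 3 h replicate 2 (adjusted p = 0.0503) or 0 h replicate 2 (0.0848). NRSN2 was not called in the N211del line (log2 fold change 0.04, adjusted p = 0.936) and rose by 2.29 in the INTS11 line. Its 3 h libraries of the N211del line disagreed, at 0.715 and 0.205 FPKM, so that leaving out 3 h replicate 1 or replicate 2 gave log2 fold changes of −0.67 and 0.75. The metastasis suppressor KISS1 is low and noisy in the same way, at 0.719 and 0.120 FPKM at 3 h. The natriuretic peptide gene NPPB had 6.85 and 4.90 FPKM at 3 h, against 16.6 and 12.4 FPKM at 0 h, in the N211del line, a log2 fold change of −1.29 that was not called (adjusted p = 0.0719). In the INTS11 line NPPB had 0.391 and 0 FPKM at 3 h and was listed at 0 in both 0 h libraries, so its fitted difference depends on the pseudocount.

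Falls of the N211del line were set beside those of the INTS11 line in the same way. Of the 21 genes lower by at least 2-fold in the N211del line, 9 were lower in the INTS11 line (42.9%) and 3 were higher, against 19.3% of all genes tested called lower there. DAP had a log2 fold change of −1.58 in the N211del line, against −0.05 in the INTS11 line (difference −1.53 ± 0.06, adjusted p = 5.64e-07), and STK39 had −1.57 in N211del cells and −0.13 in INTS11 cells (difference −1.44 ± 0.07, adjusted p = 9.09e-07). HOXB2 had −1.16 in N211del cells and −0.05 in INTS11 cells. The difference contains the contrast by which the 10 largest falls and rises were chosen, so no support is read from their count: it was called for all 10 falls and for 8 of the 10 rises, against 50.9% of all genes tested, DIO3 (1.15 ± 0.65, adjusted p = 0.166) and HOXD13 (2.25 ± 1.41, adjusted p = 0.212) being the others. For other genes the difference was small beside its error: NABP1 rose by 0.83 in the N211del line and by 0.79 in the INTS11 line (difference 0.04 ± 0.06, adjusted p = 0.636), and TRAF1 by 1.30 in N211del cells and by 1.35 in INTS11 cells (difference −0.05 ± 0.06, adjusted p = 0.565). ZC3H4 rose less in the N211del line, by 0.54, than in the INTS11 line, by 1.23. S phase genes showed MCM5 at −0.33 in the N211del line, against 0.17 in the INTS11 line.

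The N211del line was measured a second time in batch 1, with DMSO in place of 0 h. There 3658 of 6579 genes were called (55.6%), 3191 higher (48.5%) and 467 lower (7.1%). With libraries centred that split was 1771 higher and 2316 lower, against 2148 and 2436 in batch 2. The batch 1 libraries held 6179411 and 7019655 units with dTAG13 and 5614822 and 5517104 units with DMSO, all with a factor of 1. With that factor the batch 1 values show no scaling for library size. Both dTAG13 libraries held more units than both DMSO libraries. The median gene lay 0.21 above 0 on the log2 scale there, so the surplus of small rises depends on scaling in batch 1 too. The shared calls given next are from values that were not centred, and they were not counted with libraries centred. Of the 611 genes with rises of at least 2-fold in batch 2, 513 were tested in batch 1, and 492 of those were called higher there (95.9%), with 1 called lower. MAFA, RAET1G, INSL4, HOXD13 and FGFR3, all among the largest rises, were not tested in batch 1, so these counts do not cover them. The same holds for SP9, HOXD8 and HOXC8. Of the 104 genes with rises of at least 4-fold in batch 2, 75 were tested in batch 1, and 74 of those were called higher there. Of the 21 with falls of at least 2-fold 17 were tested, and all 17 were called lower. DIO3 had a log2 fold change of 4.03 against 0 h in batch 2 and of 4.44 against DMSO in batch 1, FOSB 3.70 in batch 2 and 3.49 in batch 1, DAP −1.58 in batch 2 and −1.45 in batch 1, and NUP210 −1.25 in batch 2 and −1.65 in batch 1. Opposite calls were made for 20 genes. The largest gap was at DDIT4, with a log2 fold change of 1.63 in batch 2 and −0.49 in batch 1, followed by TXNIP, a sensor of glucose and redox state, with 0.60 in batch 2 and −0.81 in batch 1. KLRC2 had 0.84 in batch 2 and −0.50 in batch 1, and the glutathione-degrading enzyme CHAC1 had 0.62 in batch 2 and −0.37 in batch 1. Control levels lay apart too: DDIT4 had 37.0 and 36.1 FPKM at 0 h in batch 2, and 397.1 and 357.8 FPKM with DMSO in batch 1. CHAC1 had 17.1 and 18.8 FPKM at 0 h in batch 2, and 103.6 and 97.3 FPKM with DMSO in batch 1. The batches differ in control and in library factors, so batch and control cannot be told apart for these genes.

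**Figure D5:**
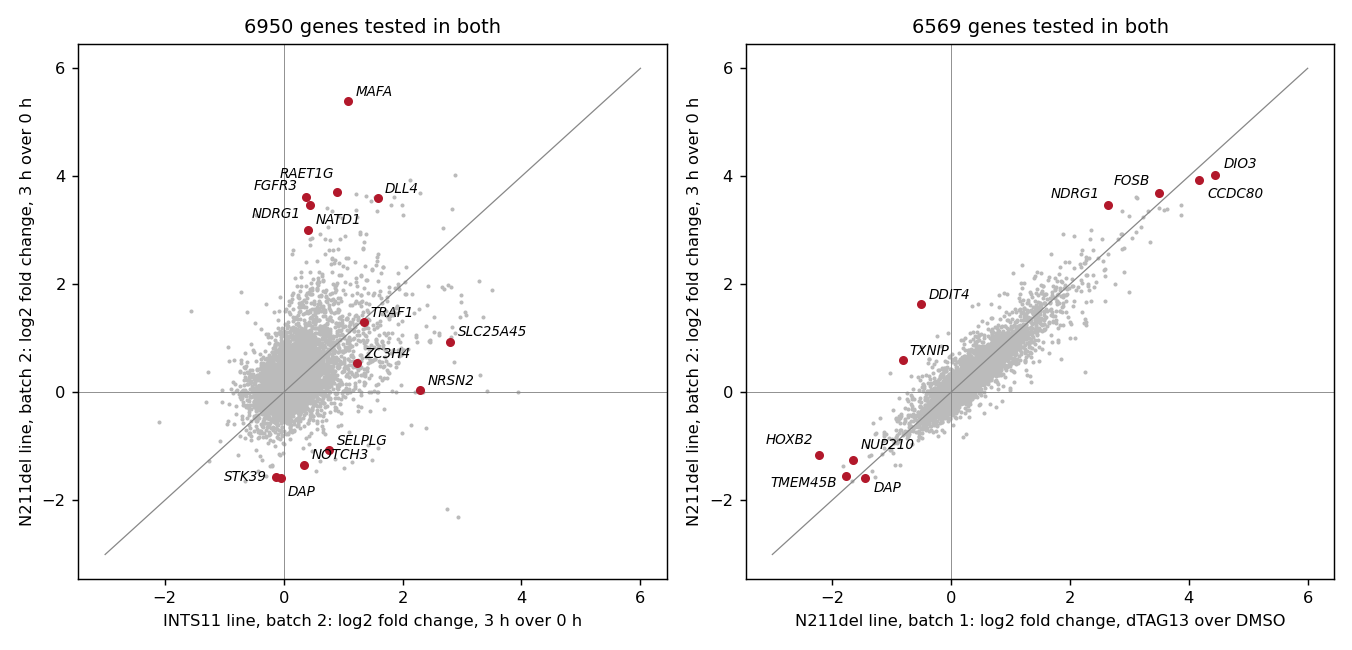
Log2 fold change of 3 h over 0 h in the N211del line of batch 2 (vertical axis) against the same in the INTS11 line of batch 2 (left panel, 6950 genes) and against dTAG13 over DMSO in the N211del line of batch 1 (right panel, 6569 genes), with 1 point per gene and the line of equality. NDRG1 lies far above the line at left, 3.46 against 0.44, and at right most genes lie near the line, apart from genes such as DDIT4.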

How the data were processed

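TT-seq libraries of DLD1 cells were used as deposited, 24 libraries in 12 groups of 2, with groups, times and replicate numbers from the labels. Members and gene lists were chosen with earlier results of these data known. The submitters' processing notes name STAR 2.7.5c, Trim Galore 0.6.6, Picard 2.23.3, DESeq2 1.26.0 and SAMtools 1.9, as well as the hg19 and mm10 builds, none with a stated role. The file headers call the deposited values FPKM. That name is kept for levels, although the library factors do not show scaling to library totals. Gene lengths were inferred from the values and not taken from an annotation. For each gene the smallest length was taken at which its batch 1 values times length were whole. That batch 1 gives whole numbers is therefore set by construction. In batch 2 the values times length were whole numbers times 1 fitted factor per library. This held for 99.90% to 100% of the lower values, which alone were checked (tolerance 0.02). The origin of the factors was not stated, so the numbers are called units, not reads, and the main calls used no count method. The chi-square between replicates and the voom alternative did treat units as counts. Per the labels' protocols the kit was stranded. Use of strand in counting was not stated, so genes that overlap others are uncertain.

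In each batch apart, log2(value + 0.1) of genes with a mean of at least 0.1 over its 12 libraries was analysed in limma (version 3.58.1, R version 4.3.3) as 1 mean for each group, using an empirical Bayes spread that was robust and trended with level, and two-sided Benjamini-Hochberg adjusted p-values at 0.05. All adjusted p-values and SEs are from limma. Batch 2 held 8709274 to 11266617 units per library and its median gene 617 to 841.5, which limits the precision of low genes. The text names a part of these: among called genes with a mean of at least 1 whose 3 h and 0 h libraries do not overlap, the 10 largest rises and 10 largest falls; the 2 called members of each of 29 lists with the largest change; the 5 largest differences between lines each way, for a mean of at least 1 over the 8 libraries; and genes at 0 in both 0 h libraries and above 0.5 in both 3 h libraries. Genes named outside this rule were chosen after their values were seen: further list members, genes with opposite calls between batches, and ODF3B and HOXD11. Names of non-coding and uncharacterised loci were left out. Promoters were matched by symbol to RefSeq on GRCh38.p14. The procedure was tested on simulated data of 6763 genes with 50 changed at each fold. It recovered 13 at 1.25-fold, 49 at 1.5-fold, 46 at 2-fold and 49 at 0.5-fold, with 7 false calls. The simulated libraries had little spread beyond counting noise. Alternatives were other pseudocounts and filters, centring, a replicate block, only the libraries of a contrast and leaving out each library. Voom on the units, a loess correction for gene length and averaging of pairs within counting noise were added after seeing the data. Scripts used Python 3.11.15, scipy 1.17.1, pandas 2.3.3 and numpy 2.4.6, with matplotlib 3.10.9 for figures.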

Additional observations from a re-analysis of the deposited data

Results flagged for a closer look

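The response of the N211del line at 3 h differed from that of the INTS11 line for 3540 genes by the interaction term of limma. Of 39 genes of the text compared in this way, 36 differed, 17 with the N211del response above that of the INTS11 line and 19 below it. These genes were named for large changes or differences, so their share is fixed in part by the choice and is not evidence, beside 50.9% of all genes tested. The values that follow are differences in log2 fold change, N211del minus INTS11. They compare changes and not levels, and at some of these genes the lines differed at 0 h already. At 0 h DDIT4 had 37.0 and 36.1 FPKM in the N211del line and 248.9 and 221.1 FPKM in the INTS11 line. CCDC80 had 0.111 and 0.239 FPKM in the N211del line and 4.593 and 4.041 FPKM in the INTS11 line. SELPLG went the other way, with 5.468 and 5.478 FPKM in the N211del line and 2.348 and 2.103 FPKM in the INTS11 line. Among the largest rises the difference was 4.31 for MAFA, whose fitted value depends on the pseudocount because it is listed at 0 at 0 h. It was 3.23 for FGFR3, 2.80 for RAET1G, 2.45 for INSL4, 2.09 for NR4A2, 2.01 for DLL4, 1.81 for CCDC80 and 1.40 for FOSB. Among the largest falls it was −1.69 for NOTCH3, −1.53 for DAP, −1.44 for STK39, −1.26 for TMEM45B, −1.17 for CRYL1, −1.16 for EEFSEC, −1.03 for ATXN10, −0.99 for A3GALT2, −0.88 for NUP210 and −0.79 for MAP2. NDRG1 and NATD1 differed by 3.02 and 2.60. NPPB, whose fitted value also depends on the pseudocount, KISS1, NRSN2, SLC25A45 and SELPLG differed by −2.44, −2.41, −2.25, −1.86 and −1.84. Of stress and signalling genes, SNAI1 differed by 2.13, DDIT4 by 1.92, TXNIP by 1.43, HERPUD1 by 1.35, CHAC1 by 0.53 and EGR1 by −0.68. HEXIM1 and INTS2, genes of the transcription machinery, differed by 0.75 and 0.25, ZC3H4 by −0.69, MCM5 by −0.50 and HOXB2 by −1.10.

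In the N211del line 4 of the named genes were called higher against 0 h in batch 2 and lower against DMSO in batch 1, and that difference was not tested. The batch 1 log2 fold changes were −0.81 for TXNIP, −0.50 for KLRC2, −0.49 for DDIT4 and −0.37 for CHAC1. CCN1 was called lower in batch 2 and higher in batch 1 (log2 fold change 0.28), also without a test of the difference.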

How the results depend on the processing

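Across pseudocounts of 0.01 and 1, no filter, a filter at a mean of 1 and only the libraries of the contrast, each count of called genes was within 1.5 times its reported value. With each library centred on its median, 2148 genes were higher and 2436 lower at 3 h against 0 h. A loess correction for gene length, added after seeing the data, gave 1749 and 3060. For 3 h against 1 h the count was 1333 centred and 1155 after the loess correction. Averaging pairs within counting noise, also added later, gave 1039 for that comparison, 2250 for the difference between lines and 3703 for 3 h against 0 h. Voom, added likewise, gave 4544. Leaving out 1 library, which assumes that the lone sample left varies like those of other groups, gave 3755 to 4032 called genes for 3 h against 0 h (2937 to 3330 higher, 702 to 908 lower), 1391 to 1764 for 3 h against 1 h, 4382 to 4701 for 1 h against 0 h, 2970 to 3376 for the difference between lines and 2930 to 4071 in batch 1. With the replicate number as a block the counts were 4352 (3420 higher, 932 lower), 2469 for 3 h against 1 h, 3465 for the difference and 3596 in batch 1. Deviations of same-numbered libraries correlated at −0.053 between 3 h and 0 h, and at −0.079 to 0.042 over all pairs of batch 2 groups. Where the spread is near counting noise, such values cannot tell whether same-numbered libraries were handled together. Of 93 genes named, 81 were called at every setting run. NRSN2 had a log2 fold change of −0.67 without 3 h replicate 1 and 0.75 without 3 h replicate 2. The calls of RPS27L, CHAC1 and TXNIP were lost after the loess correction (adjusted p = 0.404, 0.275 and 0.382). Of 784 counts of list members, 134 moved by over 1.5 times. The cause was not tested. Genes at 0 at 0 h have fitted fold changes set by the pseudocount.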
